A study of Mus musculus with 2 samples.

Results

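Peg3, Usp29, Zim1, Peg10, Sgce, Mest, Plagl1, Grb10, Nnat and Igf2r are imprinted genes that lie outside the large clusters on distal chromosomes 7 and 12. They were taken by gene symbol, and all 10 listed symbols were found, with 91 annotated transcripts, among 55536 annotated genes. Total RNA had been sequenced from the adrenal gland of 4-day-old male B6CASTF1/J mice, the F1 of C57BL/6J and CAST/EiJ, supplied by The Jackson Laboratory. The series held 1 group with 2 biological replicates, each a library from 300 ng of RNA, and no second genotype, treatment, age or tissue. The samples carry different male numbers but 1 donor label, and p-values here set the difference between these 2 libraries, which may be partly technical, against counting error. The tables hold no count by parental allele, so which allele was expressed was not analysed here.

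Imprinted genes are transcribed mainly from the copy inherited from 1 parent, under the control of DNA methylation set in the egg or the sperm. Peg3, Usp29, Peg10, Sgce, Mest, Plagl1 and Nnat are known as paternally expressed, Zim1 and Igf2r as maternally expressed, and Grb10 as maternally expressed in most tissues and paternally expressed in neurons. Many of them act on fetal and newborn growth, and several are typical of embryonic and endocrine tissue.

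The gene tables held 32231301 and 30292851 expected counts (reads shared among transcripts by estimation) on annotated genes in replicates 1 and 2. Taking 3 counts as the floor, a gene with none could have made up at most 0.0931 and 0.0990 CPM, and such limits and the intervals below hold for counting error alone. All 8 cortical and all 7 medullary markers of the adrenal gland passed 1 TPM, a level scaled for transcript length and for the library's total. The libraries stood apart in markers of other tissues. All 10 liver markers were over 2-fold higher in replicate 2, with a summed level of 232 TPM in replicate 1 and 6067 TPM in replicate 2, led by Alb at 76.26 and 2319 TPM. Skeletal muscle markers summed to 655 and 1207 TPM (8 of 8 higher in replicate 2) and erythroid markers to 1700 and 3128 TPM (5 of 5 higher). Cortical markers summed to 8667 and 6662 TPM (8 of 8 higher in replicate 1) and medullary markers to 2141 and 1935 TPM (6 of 7 higher in replicate 1). None of these marker genes was at 0 in both libraries, and their part in the differences below was not tested.

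All 10 imprinted genes were detected at a mean of 1 TPM or more, and 9 of them lay above the median of 11.5 TPM among the 13305 protein-coding genes at that level. Peg10 was the highest at 171 ± 5.54 TPM (SD, n = 2), followed by Mest at 128 ± 6.12, Nnat at 127 ± 10.2 and Grb10 at 102 ± 5.97 TPM. Their mean levels ranked 269, 399, 401 and 533 among 22028 protein-coding genes. Peg3 came next at 62.5 ± 10.1 TPM, then Plagl1 at 38.9 ± 1.90, Sgce at 29.4 ± 1.67, Igf2r at 25.4 ± 2.43 and Zim1 at 21.4 ± 4.31 TPM. Usp29 was the lowest at 2.52 ± 0.686 TPM, with rank 11707. In this order the 2 replicate values of Mest and Nnat overlapped, as did those of Igf2r and Zim1, and all other neighbours were apart. The alignment-free tables, in which reads are assigned to transcripts without an alignment, gave the same order except that these overlapping pairs changed places.

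**Figure D1:**
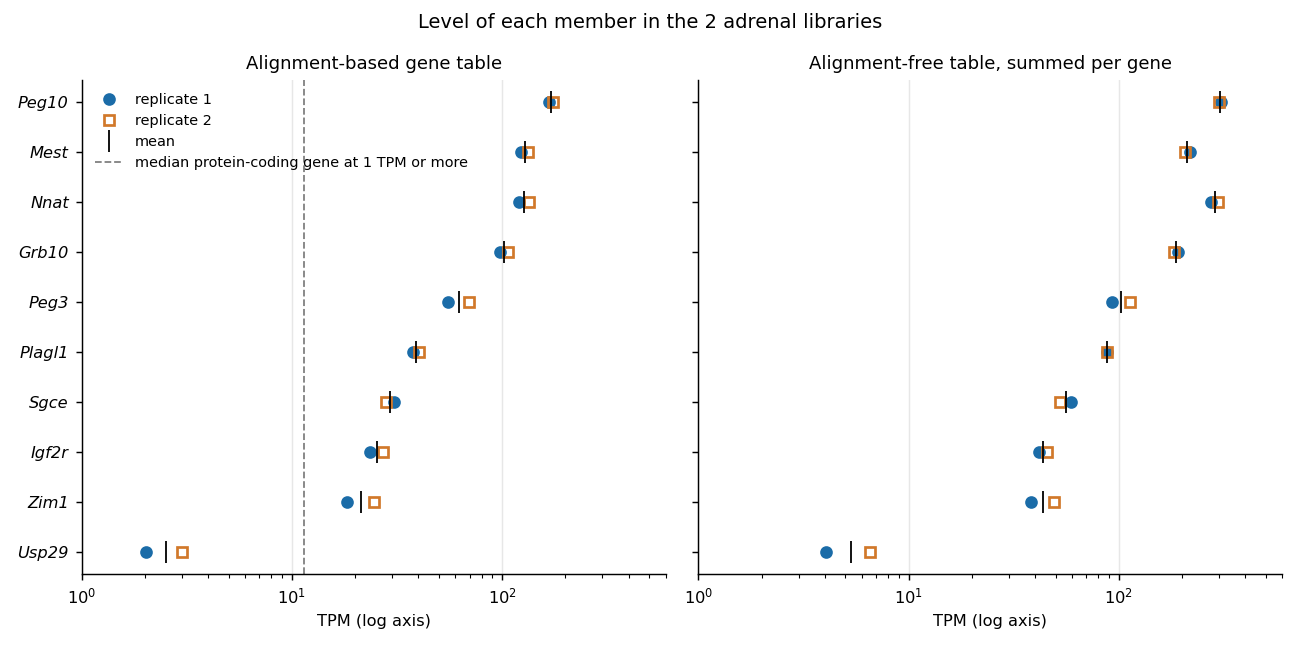
TPM of the 10 imprinted genes on a log axis in the alignment-based gene tables (left) and the alignment-free tables summed per gene (right), with 1 symbol per library and the mean as a tick. Usp29 is the 1 gene left of the dashed line at 11.5 TPM, the median of protein-coding genes at 1 TPM or more.

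Between the replicates, 6 of the 10 genes were called higher in replicate 2, 1 was called higher in replicate 1 and 3 were not called, by an exact two-sided binomial test of the counts with Benjamini-Hochberg adjustment over 18160 genes at 0.05. Of all genes tested, 33.5% were called, 15.9% higher in replicate 2 and 17.6% higher in replicate 1. The calls counted in each gene list below are to be read beside these shares. None of the 10 differed by over 2-fold, against 3.98% of all genes tested. The median log2 ratio of replicate 2 over replicate 1 was 0.08 over the 10 genes and 0.00 over all genes, whose median absolute ratio was 0.17. In a bulk sample, fewer cells of a type and less RNA per cell cannot be told apart. At this depth the test calls differences of a few percent, so each call among the 10 genes is given with its size.

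**Figure D2:**
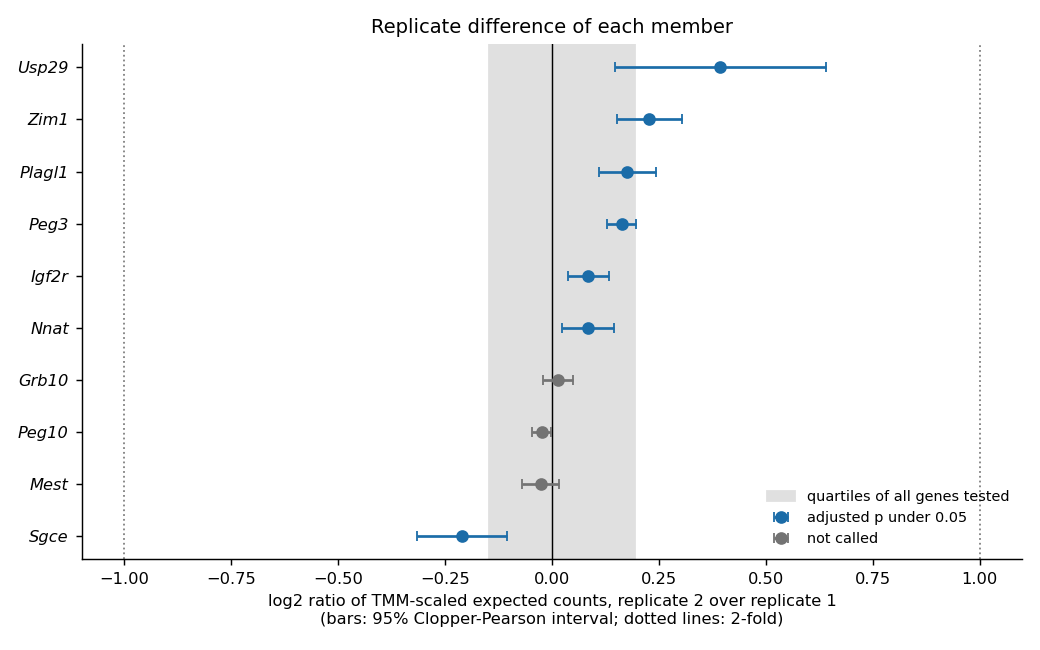
Log2 ratio of replicate 2 over replicate 1 for each of the 10 genes, on TMM-scaled expected counts, with 95% Clopper-Pearson intervals and dotted lines at 2-fold. The grey band spans the quartiles of all genes tested, from -0.15 to 0.19, and Usp29, Zim1 and Sgce have their ratio outside it.

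The Peg3 domain on chromosome 7 holds Peg3 and Zim1, which encode zinc finger proteins, and Usp29, which encodes a deubiquitinating enzyme. Peg3 (ENSMUSG00000002265.16, chr7:6703892-6730431 in mm10, minus strand) and Usp29 (ENSMUSG00000051527.11, chr7:6730578-6967219, plus strand) start back to back, 147 bases apart. The 146 bases between the annotated genes, chr7:6730432-6730577 in GRCm38 from RefSeq, are shown on the Usp29 strand because this 1 interval separates the pair that differed most in level among the 6 neighbouring pairs measured. Capitals mark its 5 CpG dinucleotides, the sites of DNA methylation.
Peg3-Usp29 interval: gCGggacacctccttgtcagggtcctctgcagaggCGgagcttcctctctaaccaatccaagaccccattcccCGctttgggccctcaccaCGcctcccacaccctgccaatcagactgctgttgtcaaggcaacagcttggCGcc
CCAAT, searched with its reverse complement ATTGG, occurred 2 times in it, starting at bases 53 and 108. Of all 32851 RefSeq promoter windows of 300 bases, which are longer than the interval, 37.4% hold that motif at least once. TGACGTCA, its own reverse complement and the cAMP response element, was absent from the interval but present once in both genes' promoter windows, at chr7:6730590-6730597, overlapping neither CCAAT. Of all windows 1.79% hold it, and among the 11 windows found for 8 of the 10 genes these were the only ones. A match is a description of letters and not a binding site.

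Peg3 measured 55.35 and 69.67 TPM in replicates 1 and 2, and Usp29 measured 2.03 and 3.00 TPM from 245 and 309 counts. Within a library Peg3 thus stood 27.3-fold and 23.2-fold above Usp29, a log2 ratio of 4.65 ± 0.16 (SD, n = 2) across an interval of 146 bases. Zim1 (ENSMUSG00000002266.17, chr7:6671269-6696450, minus strand), which lies beyond the 3′ end of Peg3, measured 18.37 and 24.46 TPM. Peg3 was 3.01-fold and 2.85-fold above it. The other genes of the domain list, Zim3 and Zfp264, were listed at 0 in both libraries.

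All 3 expressed genes of the domain were called higher in replicate 2, as were 15.9% of all genes tested. The log2 ratio was 0.16 (95% interval 0.13 to 0.20, adjusted exact binomial p = 3.85e-20) for Peg3, 0.23 (0.15 to 0.30, 4.40e-08) for Zim1 and 0.39 (0.15 to 0.64, 0.00674) for Usp29. The 3 intervals overlap one another, and that of Usp29, with the fewest counts, is the widest. The ratio of Peg3 lay within the quartiles of all genes tested, from -0.15 to 0.19.

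The domain's transcripts were mixed. Peg3-201, the full-length coding transcript of 1571 annotated codons, took 81.2% and 73.8% of the gene's TPM. Peg3-204, a transcript annotated as retaining an intron, took 8.02% and 14.1%, from 694 and 1388 estimated counts. The alignment-free tables gave it 8.73% and 14.9%, so both quantifications placed more of Peg3 on it in replicate 2. Peg3-202, annotated as subject to nonsense-mediated decay, took 6.29% and 10.1%, against 0% and 4.68% without alignment.

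Protein-coding transcripts made up the smaller part of Usp29. Its leading transcript was Usp29-205, a processed transcript with no annotated coding sequence that ends far upstream of the enzyme's coding exon, at 41.4% and 35.2% of TPM. Usp29-204, which holds the full coding sequence of 869 codons, took 12.3% and 12.6%. Usp29-202, with 198 codons, took 20.7% and 14.9%, from 24 counts in each library. All protein-coding transcripts together took 38.4% and 28.9% of Usp29. The noncoding Usp29-206, Usp29-208 and Usp29-209 each reached 10% in at least 1 of the 4 tables.

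The TPM of Zim1 was split over 2 groups of annotated starts. The upstream group, Zim1-201 and Zim1-202, took 65.7% and 57.4%, and the group starting at chr7:6688672, Zim1-203 and the noncoding Zim1-204, took 34.3% and 42.6%. The alignment-free shares of the downstream group were 41.5% and 45.6%. TPM is scaled for length, and the group's part in counts was smaller. With alignment, Zim1-203 had 153 and 269 counts of the gene's 2644 and 2972. Zim1-204, a model of 408 bases, had 35.6 and 45.5 counts. Zim1-201, Zim1-202 and Zim1-203 are annotated with the same 579 codons, so among these coding transcripts the start leaves the annotated coding length as it is. Zim1-204, with no annotated coding sequence, took 18.9% and 20.2% of the gene's TPM, and 28.2% and 28.7% without alignment.

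Peg10 and Sgce form a second pair that starts back to back, on chromosome 6. Peg10 (ENSMUSG00000092035.8, chr6:4747306-4760517, plus strand) derives from the gag and pol genes of a retrotransposon and is needed for the placenta. Sgce (ENSMUSG00000004631.15, chr6:4674350-4747207, minus strand) encodes epsilon-sarcoglycan, a membrane protein of the dystrophin complex that is also made outside muscle. Their annotated starts lie 99 bases apart.

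Peg10 measured 166.93 and 174.77 TPM, and Sgce measured 30.54 and 28.18 TPM. Peg10 was 5.47-fold and 6.20-fold above Sgce, a log2 ratio of 2.54 ± 0.13 (SD, n = 2). The replicate difference of Peg10 was -0.02 on the log2 scale (95% interval -0.05 to -0.00) and was not called (adjusted exact binomial p = 0.0764), with 35769 and 33765 counts. Sgce was the 1 gene of the 10 called higher in replicate 1, at -0.21 (-0.32 to -0.11, adjusted exact binomial p = 4.27e-04).

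The 2 kinds of table assigned Peg10 to different transcripts. In the alignment-based tables Peg10-203 took 98.0% and 98.3% of the gene, and in the alignment-free tables Peg10-202 took 99.0% and 99.6%. Peg10-203 is the last 6567 bases of Peg10-202, which has 100 more bases at its 5′ end, so the pair can be told apart only there. Their annotated coding sequences differ, however. That of Peg10-202 has 376 codons and holds the heptamer GGGAAAC, the site at which Peg10 translation is known to shift by 1 base into the second reading frame. The annotated coding sequence of Peg10-203, with 604 codons, starts downstream of it. The site, shown because both transcripts carry it whichever table is used, lies at chr6:4755315-4755344 (GENCODE M21 transcript, mm10), with the heptamer in capitals.
Peg10 frameshift site: gaattcgccgccGGGAAACtccccggcccc
The heptamer's first base is the last base of a codon in the frame of Peg10-202.

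Sgce transcripts were less settled. Sgce-205, with 437 codons, led both kinds of table at 79.2% and 59.2%, and at 46.0% and 40.1% without alignment. Sgce-207, with 396 codons, was at 0% and 6.60% in the alignment-based tables but at 32.1% and 31.7% in the alignment-free ones. Sgce-202 took 7.50% and 20.9%, against 0% and 4.96%. Transcripts that start within the first start group took over 96% of Sgce in every table, so the tables differed in the spliced form and not in the start group.

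Of the other genes in this domain, Pon3, a lactonase gene, measured 33.36 and 27.25 TPM, Ppp1r9a, encoding a neuronal actin-binding protein, 21.06 and 23.74, Casd1, encoding a sialic acid acetyltransferase, 15.73 and 15.51, and Pon2 14.14 and 13.49 TPM. Asb4 measured 4.25 and 4.38 TPM and Tfpi2 1.06 and 2.00 TPM. Pon1, a lactonase that the liver makes for the blood, measured 0.52 and 12.52 TPM, a log2 ratio of 4.68, close to the median of 4.77 over the 10 liver markers. Over the whole list 9 genes were tested, of which 1 (Pon1) was called higher in replicate 2 and 4 (Sgce, Casd1, Pon2, Pon3) higher in replicate 1.

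Of 12 sarcoglycan and dystrophin complex genes 11 passed 1 TPM, and 5 were called higher in replicate 2 and 1 in replicate 1 (median log2 ratio 0.10). The highest were Dag1, encoding dystroglycan, at 56.59 and 56.13 TPM, Utrn, encoding the dystrophin relative utrophin, at 27.00 and 32.30 TPM, and Sntb1, encoding a syntrophin, at 19.66 and 22.16 TPM. Of 12 other genes of retrotransposon origin 10 passed 1 TPM, led by Rtl8a at 53.93 and 51.56 TPM, Rtl8c at 41.79 and 35.48 TPM and Rtl8b at 34.10 and 34.18 TPM. In that list 1 was called higher in replicate 2 and 4 higher in replicate 1 (median log2 ratio -0.07). Peg10 thus had the highest TPM of the retrotransposon-derived genes measured.

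Mest (ENSMUSG00000051855.15, chr6:30723547-30748465, plus strand) encodes a protein with the fold of a hydrolase, known from mesoderm and growing fat. It measured 123.47 and 132.13 TPM from 9060 and 8540 counts, and its replicate difference of -0.03 on the log2 scale (95% interval -0.07 to 0.02) was not called (adjusted exact binomial p = 0.391). Its TPM was higher in replicate 2 while its TMM-scaled count was not, and protein-coding genes as a whole took 36.6% and 39.2% of all TPM in replicates 1 and 2. Copg2, encoding a coat protein of Golgi vesicles, ends against Mest on the opposite strand with 912 shared bases and measured 26.33 and 26.98 TPM. Mest stood 4.69-fold and 4.90-fold above it. Cep41, encoding a centrosomal protein, measured 5.19 and 3.28 TPM and was called higher in replicate 1, the 1 call in this domain's list.

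In the alignment-based tables nearly all of Mest came from 1 start. Transcripts starting at chr6:30738050-30738055, led by Mest-211 with 335 codons, took 96.7% and 94.4% of TPM, and 79.9% and 92.8% without alignment. Those starting upstream at chr6:30733454-30733506, among them Mest-210 with 326 codons, took 0.23% and 1.67%, but 17.5% and 4.39% in the alignment-free tables. The libraries thus took opposite orders on the upstream start in the 2 kinds of table. The bases just before each start, from RefSeq in GRCm38, are printed to compare the main start with the one on which the tables differ most, with CpG in capitals.
Mest main start, chr6:30737800-30738049: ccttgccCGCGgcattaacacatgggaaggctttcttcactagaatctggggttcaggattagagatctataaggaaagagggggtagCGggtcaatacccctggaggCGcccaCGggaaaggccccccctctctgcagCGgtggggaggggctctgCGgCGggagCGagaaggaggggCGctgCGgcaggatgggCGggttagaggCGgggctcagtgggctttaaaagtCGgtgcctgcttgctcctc
Mest upstream start, chr6:30733256-30733453: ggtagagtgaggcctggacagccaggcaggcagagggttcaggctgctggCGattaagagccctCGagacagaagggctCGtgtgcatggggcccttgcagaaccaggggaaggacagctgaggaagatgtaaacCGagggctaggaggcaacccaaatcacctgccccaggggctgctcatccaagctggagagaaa
The first holds 14 CpG in 250 bases and the second 4 in 198. Over 250 bases upstream of each RefSeq start, the main start had more CpG than 70.6% of all windows and the upstream start, with 7, more than 53.7%.

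Plagl1 (ENSMUSG00000019817.18, chr10:13060504-13131694, plus strand) encodes a zinc finger transcription factor that restrains the cell cycle and is known to regulate other imprinted genes. It measured 37.57 and 40.25 TPM from 3515 and 3813 counts and was called higher in replicate 2, at a log2 ratio of 0.18 (95% interval 0.11 to 0.24, adjusted exact binomial p = 1.72e-06). Of its 25 annotated transcripts, 22 start within chr10:13090691-13091013, and these took 79.8% and 85.8% of TPM. Plagl1-202, with 704 codons, was the leading one at 49.0% and 56.6%, and at 41.0% and 46.9% without alignment. Plagl1-208, a short coding transcript that starts further downstream at chr10:13113465, took 14.1% and 6.29%. Plagl1-220, a coding fragment of 364 bases, took 10.4% and 12.4% from 34 and 39 counts and was at 0% in the alignment-free tables. Plagl1-204, also a short one, was at 0% with alignment and at 4.50% and 10.3% without. The annotated start at chr10:13060504 took 0% in all 4 tables.

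In the same domain Utrn was called higher in replicate 2 as well (log2 ratio 0.10). Phactr2 measured 16.28 and 17.53 TPM, Ltv1 12.75 and 13.16 TPM and Sf3b5 4.71 and 4.66 TPM, with no call. Plagl1 was the highest of its 5 listed genes in both libraries.

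Grb10 (ENSMUSG00000020176.17, chr11:11930508-12038683, minus strand) encodes an adaptor that binds the insulin and IGF1 receptors and restrains growth. It measured 98.06 and 106.5 TPM from 14104 and 13670 counts. The replicate difference was 0.01 on the log2 scale (95% interval -0.02 to 0.05, adjusted exact binomial p = 0.596). Its neighbour Ddc, the enzyme that makes dopamine in chromaffin cells, measured 39.36 and 39.72 TPM, Fignl1 6.25 and 6.36 TPM and Cobl 2.12 and 3.50 TPM. None of the 4 genes of the domain was called, and the lowest adjusted exact binomial p was that of Ddc at 0.0775.

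The upstream start of Grb10, which serves the maternal copy in most tissues, carried the gene. Grb10-201, with 596 codons, starts at chr11:12037401 and took 84.4% and 83.0% of TPM, and 71.1% and 74.3% without alignment. Downstream starts, in the part of the gene known for paternal transcripts in neurons, took less. Grb10-203, which starts at chr11:12027971, took 0.61% and 0.58%, from 92 and 86 counts, and 2.67% and 3.02% without alignment. The next starts, at chr11:12026324-12026732, belong to 2 short fragments, Grb10-207 and Grb10-209, and are a group of their own only by the limit of 1000 bases between starts. Together they took 11.1% and 11.2%, and 7.46% and 7.72% without alignment, but the kinds of table differed on which fragment. Grb10-207 took 9.45% and 9.63% with alignment, from 102 and 101 counts, and 0% without. Grb10-209 took 1.65% and 1.52%, against 7.46% and 7.72%. Grb10-204, a noncoding transcript of 479 bases, reached 12.2% in the alignment-free table of replicate 1, against 1.47% with alignment. The 250 bases before the RefSeq starts nearest to those of Grb10-201 and Grb10-203, in GRCm38 on the minus strand, have CpG in capitals. They are shown because these 2 starts differ widely in use and in CpG. The starts of Grb10-207 and Grb10-209, which took more TPM than that of Grb10-203, had no RefSeq window, and their CpG was not counted.
Grb10 upstream start, chr11:12037421-12037670: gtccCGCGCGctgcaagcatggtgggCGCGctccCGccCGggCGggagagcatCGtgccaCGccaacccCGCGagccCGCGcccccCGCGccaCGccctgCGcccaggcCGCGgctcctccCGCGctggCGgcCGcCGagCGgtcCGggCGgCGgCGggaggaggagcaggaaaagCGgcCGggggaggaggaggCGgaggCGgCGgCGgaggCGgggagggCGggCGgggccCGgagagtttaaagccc
Grb10 downstream start, chr11:12027972-12028221: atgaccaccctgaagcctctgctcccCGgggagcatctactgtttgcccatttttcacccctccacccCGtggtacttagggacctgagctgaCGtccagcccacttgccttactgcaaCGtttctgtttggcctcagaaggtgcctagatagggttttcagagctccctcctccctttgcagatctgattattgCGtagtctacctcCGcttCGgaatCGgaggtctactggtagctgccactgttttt
The first holds 40 CpG, more than 98.7% of all windows, and the second 8, more than 57.0%.

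Igf2r (ENSMUSG00000023830.14, chr17:12682406-12769664, minus strand) encodes the receptor that removes IGF2 from the cell surface and carries mannose 6-phosphate-tagged enzymes to the lysosome. It measured 23.63 and 27.07 TPM from 6786 and 6910 counts and was called higher in replicate 2, at a log2 ratio of 0.09 (95% interval 0.04 to 0.13, adjusted exact binomial p = 0.00275). Igf2r-201, with 2483 codons in 48 exons, took 98.6% and 97.0% of its TPM, and 98.0% and 95.9% without alignment. Only Peg10 had a higher mean share on its main transcript in the alignment-based tables. The 250 bases upstream of its RefSeq start held 27 CpG, more than 91.4% of all windows.

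Airn, the paternally expressed antisense RNA that starts inside Igf2r and silences it in cis, measured 6.74 and 6.92 TPM from 208 and 175 counts. Igf2r stood 3.51-fold and 3.91-fold above it in TPM, and 32.6-fold and 39.5-fold in expected counts, which are not scaled for length. The 2 genes overlap over 28354 bases on opposite strands. The libraries were directional per the labels. No source used here says whether reads were counted by strand, so reads of the overlap, as of Mest with Copg2 and of Nnat with Blcap, could be exchanged. Of the other genes of the Igf2r list, Tcp1, encoding a chaperonin subunit, measured 79.45 and 90.79 TPM, Mrpl18 26.55 and 30.71 TPM and Acat2 17.90 and 20.43 TPM.

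The partners of Grb10 and Igf2r were measured in 2 lists. Of 20 IGF and insulin signalling genes 17 passed 1 TPM, and 4 were called higher in replicate 2 and 8 lower there (median log2 ratio -0.02). Igf2, the growth factor that Igf2r clears, was the highest by its mean, at 237.78 and 474.43 TPM, a log2 ratio of 0.92. Nedd4, a ubiquitin ligase that binds Grb10, measured 247.16 and 250.86 TPM and Akt1 121.58 and 124.22 TPM. As TMM-scaled counts both were called higher in replicate 1, at log2 ratios of -0.07 and -0.11. Grb7, a relative of Grb10, measured 0.71 and 2.10 TPM and Irs4 0.83 and 0.35 TPM, and both differed by over 2-fold. Of 14 mannose 6-phosphate pathway genes all passed 1 TPM, with 1 called higher in replicate 2 and 5 higher in replicate 1 (median log2 ratio -0.09). Ctsd, a lysosomal protease, measured 215.72 and 192.62 TPM, Ctsl 75.51 and 97.80 TPM, and M6pr, the small mannose 6-phosphate receptor, 48.17 and 49.02 TPM.

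Nnat (ENSMUSG00000067786.16, chr2:157560078-157562522, plus strand) encodes neuronatin, a small membrane protein of the endoplasmic reticulum found in neurons and endocrine cells and likened to the regulators of SERCA calcium pumps. It measured 120.17 and 134.63 TPM from 4232 and 4307 counts and was called higher in replicate 2, at a log2 ratio of 0.08 (95% interval 0.02 to 0.15, adjusted exact binomial p = 0.0242). Without the filter on low counts the adjusted p was 0.102 and the call was lost. Nnat lies within an intron of Blcap on the opposite strand, and Blcap measured 29.29 and 36.95 TPM. Nnat stood 4.10-fold and 3.64-fold above it. Src measured 12.23 and 12.05 TPM and Ctnnbl1 9.48 and 9.45 TPM, and neither was called.

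The 2 kinds of table gave different forms of Nnat. The second exon of Nnat-202, 81 bases at chr2:157561213-157561293 (GENCODE M21 transcript, mm10), separates the known alpha form, which has it, from the beta form, which skips it. In Nnat-210 the exon ends after its first 27 bases, which are in capitals, and the exon is printed because the disagreement turns on it.
Nnat exon 2: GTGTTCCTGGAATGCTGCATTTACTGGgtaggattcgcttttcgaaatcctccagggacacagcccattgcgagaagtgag
Nnat-202, with 81 codons, took 78.8% and 79.2% of TPM in the alignment-based tables but 14.3% and 14.4% in the alignment-free ones. Nnat-210, with 63 codons, took 0.55% and 0% against 52.8% and 53.6%. Nnat-205, with 54 codons and no second exon, took 8.93% and 10.1% against 0.02% and 0.11%. Nnat-207, which has an extra exon before the second one, took 0% against 23.2% and 20.9%.

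Summed over all 10 Nnat transcripts, those with the whole second exon took 78.8% and 79.2% with alignment and 37.5% and 35.3% without. Those with the shortened exon took 0.55% and 0%, or 52.8% and 53.6%, and those without it 10.5% and 11.8%, or 0.02% and 0.11%. The other 4 transcripts, which hold the second exon as part of a longer or cut exon, took 10.2% and 9.02% with alignment and 9.71% and 10.96% without, much the same in all 4 tables. The whole, shortened and absent forms differed far more between the kinds of table than between the replicates of 1 kind. As a whole gene Nnat was among the 3 highest of the 10 in both.

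Of 5 SERCA pump and regulator genes 4 passed 1 TPM, and all 3 tested were called higher in replicate 2, against 15.9% of all genes tested. Atp2a2, the widely expressed pump, measured 59.47 and 67.32 TPM, Atp2a1, the pump of fast skeletal muscle, 29.59 and 51.30 TPM, and Atp2a3 4.68 and 5.88 TPM. Atp2a1 moved with the skeletal muscle markers (log2 ratio 0.73, against a median of 0.79 over those 8 markers), and their part in it was not tested.

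**Figure D3:**
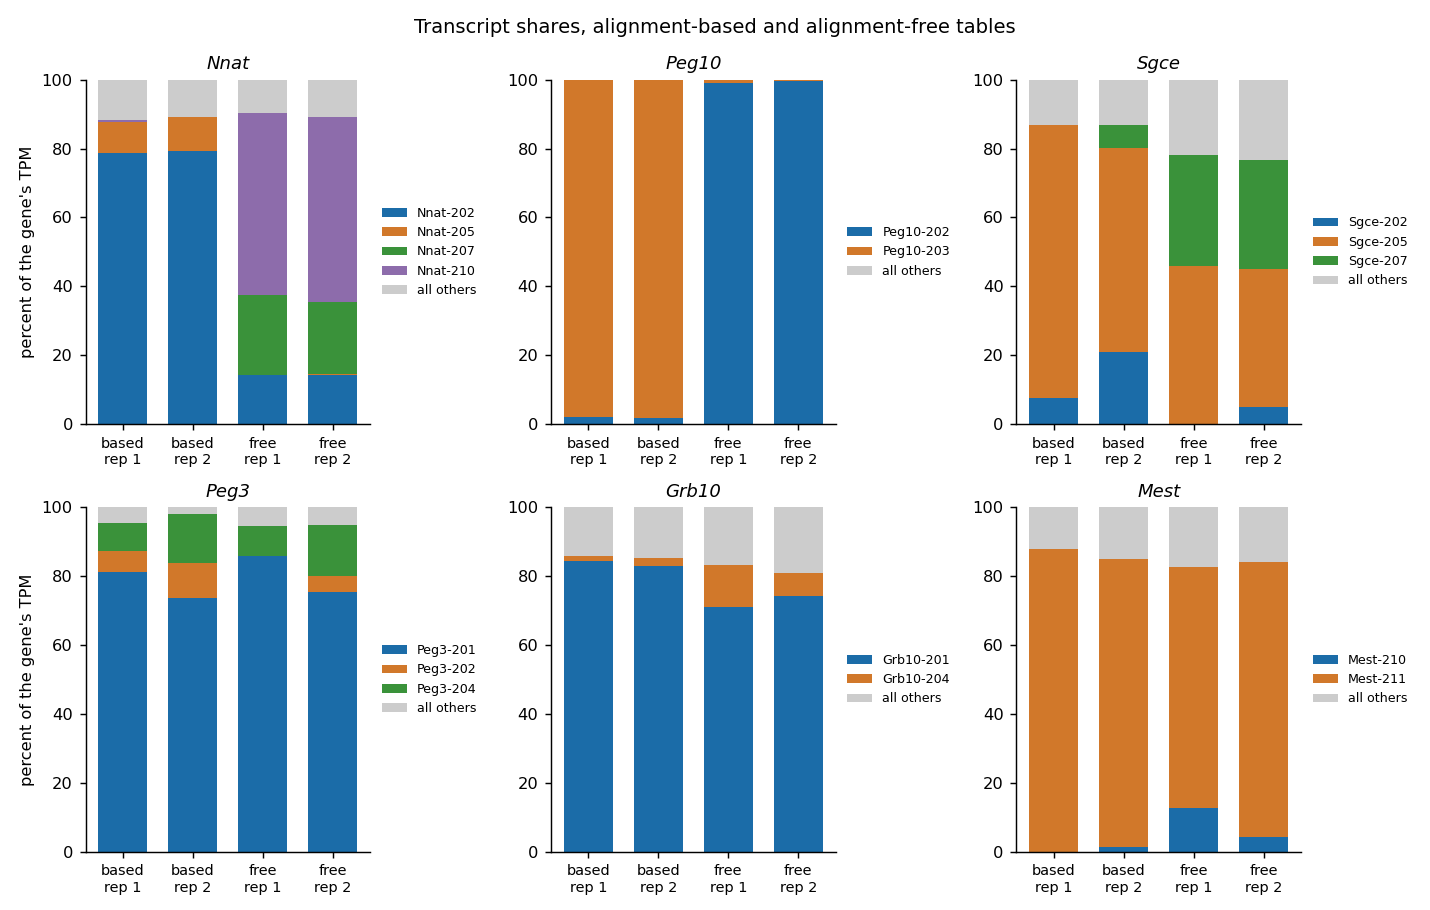
Percent of the gene's TPM on each transcript that reaches 10% in any of the 4 tables, for 6 of the genes. The first 2 bars of each panel are the alignment-based tables of replicates 1 and 2, the last 2 the alignment-free tables, and grey is all other transcripts. Nnat and Peg10 change their main transcript between the kinds of table.

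Across the 10 genes the main transcript was the same in both kinds of table for 8, all except Nnat and Peg10. Among 12046 protein-coding genes at 1 TPM or more with at least 2 transcripts this held for 75.7%. The mean share of the main transcript with alignment ranged from 38.3% in Usp29 to 98.1% in Peg10, and the median over those genes was 62.7%.

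**Figure D4:**
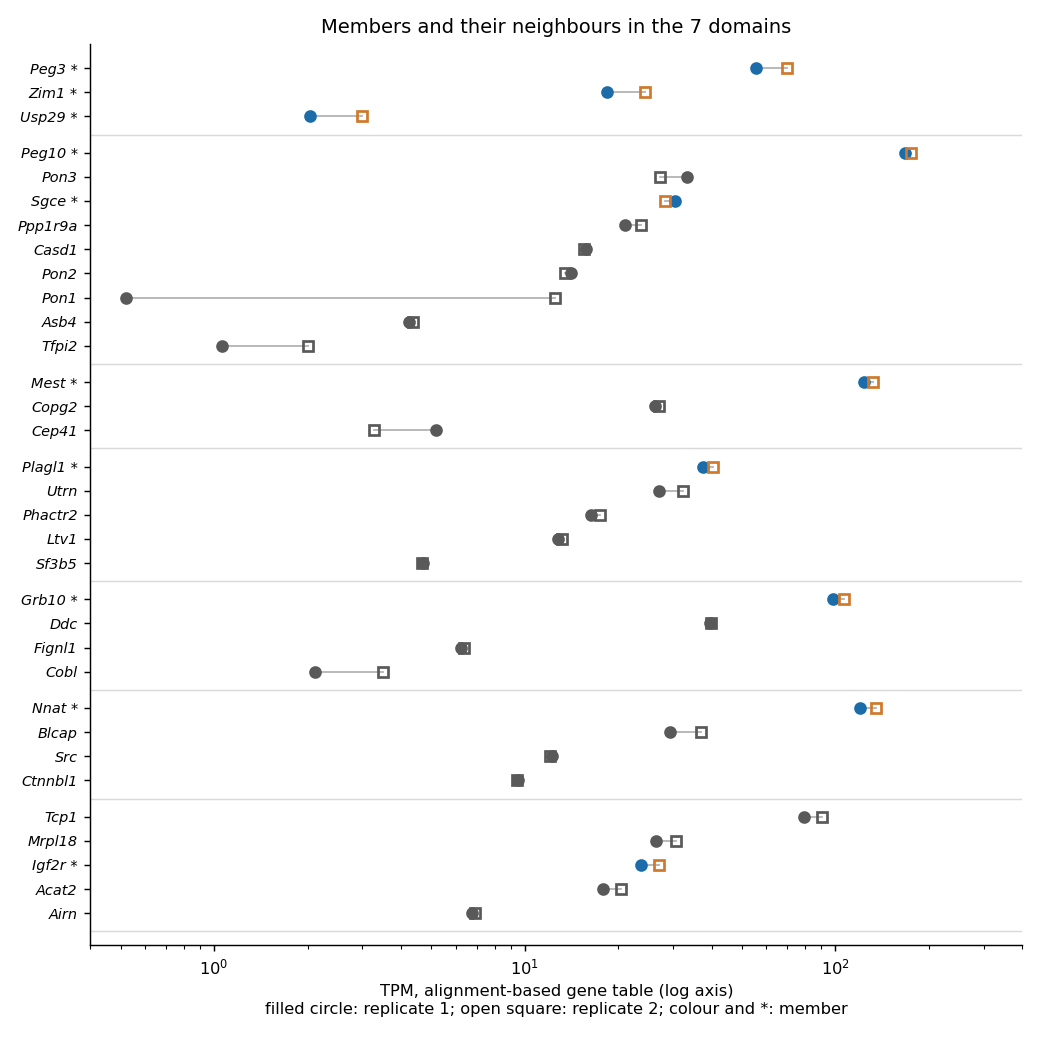
TPM of the 10 imprinted genes (coloured, starred) and of their listed neighbours with a mean of 1.5 TPM or more (grey) in the 7 chromosome domains, with replicate 1 as a filled circle and replicate 2 as an open square on a log axis. A starred gene is the highest in 6 of the 7 domains, and in the Igf2r domain Tcp1 and Mrpl18 lie above Igf2r. Grey marks genes outside the 10 and not a lack of imprinting, since Airn is among them.

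Outside these domains, 33 of 37 other imprinted genes passed 1 TPM, against 15123 of 55536 annotated genes. Of the 37, 13 were called higher in replicate 2 and 8 in replicate 1, against 15.9% and 17.6% of all genes tested. Among these 8 is a gene also counted among the medullary markers. Gnas measured 1073 and 1131 TPM, Meg3 649.85 and 902.33 TPM and Cdkn1c 565.45 and 542.63 TPM, all above Peg10. Slc22a18 at 1.04 and 2.48 TPM and Rasgrf1 at 0.25 and 0.62 TPM differed by over 2-fold. Of 10 factors that bind or maintain imprint control regions 9 passed 1 TPM, with 1 called higher in replicate 2 and 2 higher in replicate 1. Trim28, the co-repressor recruited to imprints, measured 129.63 and 139.01 TPM but was called higher in replicate 1 as a TMM-scaled count (log2 ratio -0.08). Zfp445, which recruits it, measured 54.89 and 68.80 TPM and was called higher in replicate 2 (0.24). Yy1, which binds in the Peg3 domain, measured 29.80 and 24.85 TPM and was called higher in replicate 1 (-0.32).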

How the data were processed

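The 2 total RNA libraries formed 1 group, by the labels' replicate numbers. Per the labels, the build was mm10 and RNA was sequenced with ERCC spike-ins. The sources used here name no programs or versions for the tables. Expected counts, so named in the deposited headers, are estimated numbers of reads and were rounded to whole numbers for the binomial test. TPM values deposited by the authors are scaled for effective length. Protein-coding genes took 36.6% and 39.2% of all TPM in replicates 1 and 2, and the part of short RNAs in the rest was not tested. Alignment-free TPM was summed per gene by the annotation's gene identifiers. It was a median of 1.86 times the alignment-based TPM over protein-coding genes, so levels are compared only within a table. Rows without a gene (26248, with 3 and 2 counts) were left out, as were spike-ins (1.06% of counts in each library).

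Library sizes were TMM sizes from edgeR 4.0.16 under R 4.3.3, over the 18160 genes that filterByExpr kept. Log2 ratios use a prior count of 0.5. The binomial test compares libraries, not conditions. Alternatives were DESeq2 1.42.0 size factors, spike-in totals, no filter, and alignment-free counts, TPM of protein-coding genes alone, a detection level of 5 TPM, and each replicate alone. Starts within 1000 bases were grouped. Promoter windows are RefSeq's (GRCm38, 250 bases before to 50 after a start). Named were the 10 genes, their domain neighbours at 1 TPM or more and Airn, the 3 highest genes of each other list with those called over 2-fold, and transcripts at 10% or more. A result for 1 neighbour is not reported here. Of marker lists only values that bear on the results are printed. Adipocyte, stromal and endothelial markers summed to 670, 858 and 233 TPM in replicate 1 and 822, 1251 and 269 TPM in replicate 2, and kidney markers to 6.43 and 2.55 TPM. Members and lists were chosen with earlier results of these data known.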

Additional observations from a re-analysis of the deposited data

How the results depend on the processing

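All 10 genes stayed detected with alignment-free TPM and in each library alone, and 9 at 5 TPM. With 1 library left out there is no replicate test. Log2 ratios within a locus were, in alignment-free TPM, 4.31 for Peg3/Usp29, 1.23 for Peg3/Zim1 and 1.48 for Igf2r/Airn. In expected counts, which are not scaled for length, they were 5.70 and 2.35 for the first 2, 4.54 for Peg10/Sgce, 1.92 for Mest/Copg2, 5.17 for Igf2r/Airn and 1.51 for Nnat/Blcap. All 6 kept their sign. For the replicate difference, 7 genes were called as reported and 7 with DESeq2 size factors (33.5% of all genes in both), 7 with no filter (21.9%), 8 with spike-in totals (Grb10 added, 32.9%) and 9 with alignment-free counts (34.3%). Higher in replicate 1 were 2 with no filter on low counts (11.9% of all genes) and 3 with alignment-free counts (18.9%). These stood in place of 1 as reported (17.6%). The added 2 were Peg10 (-0.04 and -0.06 on the log2 scale) and Mest (-0.06, alignment-free only). Small ratios changed sign: Peg10 to 0.0054 and Mest to 0.0033 with spike-in totals, Grb10 to -0.00059 without the filter and to -0.012 with alignment-free counts. None of the 10 passed 2-fold in any alternative. No paired analysis was possible because the series holds 1 group. Start-group shares in the alignment-free tables were added after seeing the data. The p-values rest on 2 libraries, and transcripts under 50 counts are thinly measured.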
